A study of Mus musculus with 8 samples.

Results

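Regions of mouse transcripts in which every library placed an m6A peak across a gap in the genome were examined, so that the captured stretch lay on 2 or more separate blocks. The 4 deposited peak lists were pooled, and peaks that shared at least 1 base of their blocks on the same strand were linked into regions. Of 13116 regions, 4541 held peaks from all 4 lists (34.6%), and in 370 of these every list had a peak with 2 or more blocks (8.15%). Members were thus chosen by the peaks' positions and block counts in these 4 lists, and both shares describe that choice. The 370 regions carried 369 gene names. A name occurred in 2 regions for 9 genes, and 6 regions carried more than 1 name.

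The material was gastrocnemius, a calf muscle, of male C57BL/6 mice aged 10 weeks. Denervated muscle was taken 14 days after denervation, and innervated muscle came from the opposite leg, so both groups come from animals with a denervation. Each group had 2 immunoprecipitated (IP) libraries, made with an antibody against m6A, and 2 input libraries. By its name, each list set an IP library against the input library with the matching number. Nothing says that the numbers mark separate animals, so spreads and p-values cover these libraries only and may be technical. No read counts were used, so depth, transcript levels and methylation levels are unknown, and a peak depends on how much of a transcript was present as well as on its methylation. Of 12 markers of muscle fibres, among them Acta1, Ckm and Ttn, 0 carried a peak in any list, which gives no level for them.

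N6-methyladenosine (m6A) is the most common internal modification of messenger RNA. It is set by a methyltransferase complex, mostly in long internal exons and near stop codons, and is read by YTH-domain proteins that act on RNA decay and translation. The exon junction complex, left on the RNA where exons were joined, keeps the methyltransferase away from nearby bases. A peak that runs across a joint between exons can therefore be a window of captured fragments around a methylated site on either side, rather than a site at the joint itself. Where the methylated bases lay in these regions was not measured. Whether the blocks came from spliced reads or from annotated exons is not stated in the sources used here. The word gap is used below for the uncovered stretch between neighbouring blocks.

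The sequence at the edges of these gaps could be read only where an edge fell into the RefSeq table of transcript starts (GRCm38.p6, the assembly of mm10), which holds 250 bases before and 50 bases after each start. Of the 585 gaps in the 370 regions, 4 had a readable 5′ edge and 9 a readable 3′ edge. They are shown because they test whether the gaps look like introns, which usually begin with GT and end with AG. Each line below gives the RNA-sense strand, 5′ to 3′, with the first or last 2 bases of the gap in capitals. The first 4 lines are 5′ edges, where the gap begins. They lie at chr7:89517433-89517458, chr16:8637472-8637497, chr19:59943496-59943521 and chr4:124850635-124850660, all on the minus strand.
Prss23: tgctccacgcggGTgagtgcgatgcg
Tmem186: ggcgggctcatgGTaggaatgtcagg
Rab11fip2: acaccggtccagGTcggccgcttccg
1110065P20Rik: tgaaggagaacgGTggggacggggcg
The other lines are 3′ edges, where the gap ends. They lie at chr17:34119889-34119914 and chr7:27165717-27165742 on the minus strand, chr11:6292544-6292569 on the plus strand, chr19:59943353-59943378 and chr12:40037365-40037390 on the minus strand, and chr9:44084906-44084931 on the plus strand.
Brd2: cttccttgtttcAGattctccactgc
Egln2: tttctcttttccAGccacccccatca
Ogdh: cgcatgcgtaacTCaacttcctgact
Rab11fip2: ggaggagccgggCCgcgcggggcgga
Arl4a: gtggggcgtccgCCagagcggcgcgg
Usp2: tccccggcgctgACgtcgcaaagctg
All 4 readable 5′ edges began with GT. Of the 9 readable 3′ edges, 2 ended with AG, those of Brd2 and Egln2, and the other 7 did not (the remaining edges are 2 of Mgat1 and 1 of Nfe2l1). In all 9 the block after the gap began exactly at a RefSeq transcript start. Such gaps thus end at the first base of an annotated transcript, and 7 of them do not end with the letters of a usual splice acceptor. For these the label of a splice junction was not borne out by the sequence, and the other edges were not read here. The windows surround starts, so they favour edges at starts: the 9 are 1.54% of all 3′ edges, and in the other regions of the series 29 of 2515 3′ edges (1.15%) lay at a start. Of all such start windows, 26.1% hold the m6A core word GGACT anywhere in their 300 bases (26.0% hold its reverse complement, AGTCC). In the 49 regions with covered bases in a window, only covered bases counted, so this share is no yardstick for them. A GGACT site was covered in 1 of the 49. That site, in Egln2, covered in 3 lists, lay at chr7:27165679-27165696 on the minus strand and was cut short by the end of the window.
Egln2: agacaactgtGGACTtgg

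Signalling receptors, transcription factors, ubiquitin ligases and proteins of the Z-disc and triad were among the genes. Of all 2913 gene names with a shared region, 369 held a spliced one (12.7%), against 41 of 195 (21.0%) in the 9 lists pooled. Between lists the share ran from 5.56% of matrix genes to 33.3% of ubiquitin pathway genes. The lists were chosen with earlier results of these data known, and a gene with several shared regions has more chances to hold a spliced one, so nothing particular to a list is shown. A total of 175 of the 369 names (47.4%) held another shared region as well. In bulk tissue, fewer cells of a type and less RNA per cell cannot be told apart.

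Receptors and messengers of growth signalling gave the highest count, with 9 of 31 genes that had a shared region (29.0%). Irs1, the adaptor that passes insulin and IGF signals on, had a gap of 49172 bases on chromosome 1, from 82237605 to 82286776, in every list. Its spliced peak covered 1395 and 1495 bases in the innervated lists and 1395 and 1644 in the denervated lists, so the groups overlapped. Pik3r1, the regulatory subunit of phosphoinositide 3-kinase, had a gap of 9937 bases in every list, and denervated 2 alone reached another gap of 47583 bases. The type I receptors Acvr1 and Bmpr1a had short gaps of 640 and 90 bases, and the type II receptors Acvr2a and Tgfbr2 gaps of 985 and 2388 bases. All 4 gaps were held by all 4 lists. In Acvr1 the block on the 5′ side measured 14 bases in each list, and the block on the 3′ side measured 487 and 537 bases in innervated and 487 and 736 in denervated muscle. These receptors bind ligands of the TGF-beta family, some of which act on muscle mass. The Wnt coreceptors Lrp5 and Lrp6 and the coactivator Yap1 were the other members.

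Among myogenic and stress transcription factors 7 of 29 genes were members (24.1%): Foxo3, Tead4, Nfic, Klf4, Klf10, Rora and Zeb1. Foxo3, a forkhead factor that drives atrophy genes, had 1 gap of 10170 bases on chromosome 10, from 42186296 to 42196465, in every list. The block before it measured 487, 537, 487 and 537 bases and the block after it 211, 211, 211 and 311 bases, in the order innervated 1 and 2 and denervated 1 and 2. The 3 identical values of 211 and the wider 311 in denervated 2 show that the lists differed only in how far the peak ran. Tead4, a factor that binds Yap1, had a gap of 88 bases in every list. Klf4 had 2 gaps in every list, of 1417 and 116 bases, and the block between them had 165 bases each time. Denervated 2 added another gap of 646 bases.

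Of transcription and chromatin regulators 7 of 38 genes were members (18.4%), among them Ep300, Arid1b, Chd7, Kdm6b and Brd2. Ep300, a histone acetyltransferase, had a gap of 6651 bases in all lists, reached by only 4 bases in 3 of them and by 54 in innervated 2. Chd7, a chromatin remodeller, had a gap of 1432 bases with 28 bases on the 5′ side in each list. On its 3′ side the block covered 1019 bases in 3 lists and 122 in denervated 1. Arid1b, a subunit of the BAF remodelling complex, had a gap of 1464 bases in all lists.

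Sarcomere and cytoskeleton genes gave 5 of 23 (21.7%), and Xirp1 among them had the highest median covered length of all 370 regions, 3095 bases. Xirp1, an actin-binding protein of damaged and stressed muscle, had spliced peaks that covered 3045 bases in both innervated lists and 3145 and 3394 bases in the denervated lists. The denervated values were higher and the groups did not overlap, but with 2 lists per group the smallest possible p of the exact permutation test is 0.333. Other regions separated too, in either direction, and how many did was not counted. Bmp4 covered 699 bases in both innervated and 998 in both denervated lists, and Apobec2 732 and 780 against 537 in both. The separation is thus not particular to Xirp1. Its gap of 3614 bases on chromosome 9, from 120019820 to 120023433, was the same throughout. Synpo2l, a Z-disc protein, covered 1788 and 1986 bases in innervated and 596 and 1986 bases in denervated muscle. Denervated 1 was the low value and had 4 peaks in the region. Speg, a kinase of the muscle triad, crossed its gap of 1874 bases by 4 bases in every list. The other 2 were Synpo2 and Ahnak. After Xirp1 the widest were the microRNA effector Tnrc6c at a median of 2619 bases, H6pd, a sugar phosphate dehydrogenase of the endoplasmic reticulum, at 2154.5 bases, Zcchc14 at 2068 bases and the ubiquitin ligase Pdzrn3 at 1905 bases. In H6pd and Zcchc14 denervated 1 was low, at 1189 and 1097 bases, and the other lists covered 2043 to 2228 bases. Jph1, which holds the triad membranes together, was the single member among 11 excitability and junction genes. Its gap of 75140 bases had 14 bases on the 3′ side in all 4 lists and 334 to 384 bases on the 5′ side.

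Ubiquitin pathway genes gave 5 of 15 (33.3%): Cul3, a scaffold of ubiquitin ligases, Keap1, its adaptor for the factor Nrf2, and Usp13, Trip12 and Ube2o. Keap1 had 3 gaps, of which 2, of 1485 and 270 bases, were in all lists. The remaining gap, of 381 bases, was missing in denervated 2. RNA processing and m6A genes gave 3 of 20 (15%), namely the m6A reader Ythdf3, the translation factor Eif4g3 and Tnrc6c. In Ythdf3 the gap of 8530 bases on chromosome 3, from 16205425 to 16213954, was in all lists. Its 5′ block measured 691 bases in innervated 1 and 95 bases in the other lists. Metabolic genes gave 3 of 10 (30%): Hk2, the main hexokinase of muscle, Pdp1, a phosphatase that activates pyruvate dehydrogenase, and Ogdh, of the citric acid cycle. Hk2 crossed its gap of 1257 bases by 5 bases in 3 lists and by 55 bases in denervated 1. Matrix genes gave 1 of 18 (5.56%), the protease Adamts5, which held 2 spliced regions.

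Gaps differed widely in length. The median was 1597 bases, with quartiles at 669 and 4538 bases, and the range ran from 24 to 116323 bases. There were 22 gaps under 100 bases (3.76%), 184 from 100 to under 1000 (31.5%), 307 from 1000 to under 10000 (52.5%) and 72 of 10000 or more (12.3%). The 2515 gaps of all other regions were spread alike, at 4.53%, 32.7%, 50.3% and 12.4%, with a median of 1584 bases. The longest gap lay in Samd4, an RNA-binding repressor of translation, followed by 113075 bases in Zeb1, a zinc finger repressor, in 3 lists, and 97432 bases in Slc8a3, a sodium-calcium exchanger, and 96357 bases in Plcl2 in all 4. Regions were also ordered by the longest of their gaps held by all 4 lists. The lowest, at 51 bases, was a region named Hjurp that also carried 2 other names, so its gene is uncertain. Mbd3, of the NuRD repressor complex, Snrnp70, a protein of the U1 splicing particle, and Mical3, an enzyme that oxidises actin, followed at 76, 77 and 80 bases.

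**Figure D1:**
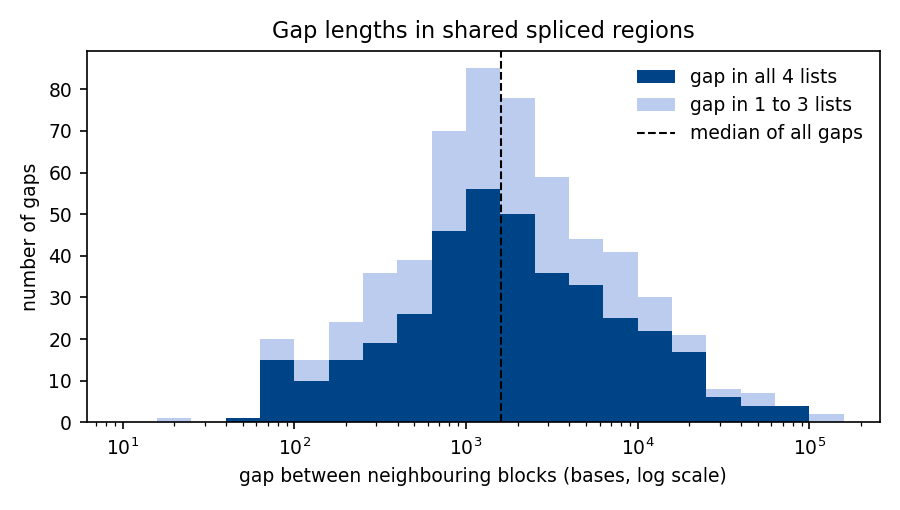
Number of gaps (y) by gap length in bases (x, log scale) for the 585 gaps of the 370 regions, dark for gaps in all 4 lists and light for gaps in 1 to 3 lists. The dashed line is the median of 1597 bases, and the medians of the dark and light parts are 1663 and 1557.5 bases.

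Blocks were short on the 5′ side of a gap and long on the 3′ side. The median block before a gap measured 90 and 89 bases in the innervated lists and 89 and 105 bases in the denervated lists. The median block after a gap measured 248 and 292.5 bases in innervated and 273 and 245.5 bases in denervated muscle. The 3′ block was the wider in 71.5% and 74.5% of gaps in the innervated and in 70.8% and 69.0% in the denervated lists. The innervated shares were higher without overlap, at 73.0% ± 2.10 (SD, n = 2) against 69.9% ± 1.23 (SD, n = 2), and the two-sided exact permutation test gave p = 0.333, the smallest possible. Many measures were compared between the groups and most overlapped, among them the medians of the 5′ and of the 3′ blocks. Many crossings were shallow: the smaller of the flanking blocks had under 10 bases in 9.94%, 10.1%, 10.5% and 7.25% of gaps in the order of lists above. In 32.0%, 32.0%, 30.3% and 35.7% it had more than 100 bases. Blocks between 2 gaps, which are bounded on both sides, had medians of 125.5 to 137 bases.

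**Figure D2:**
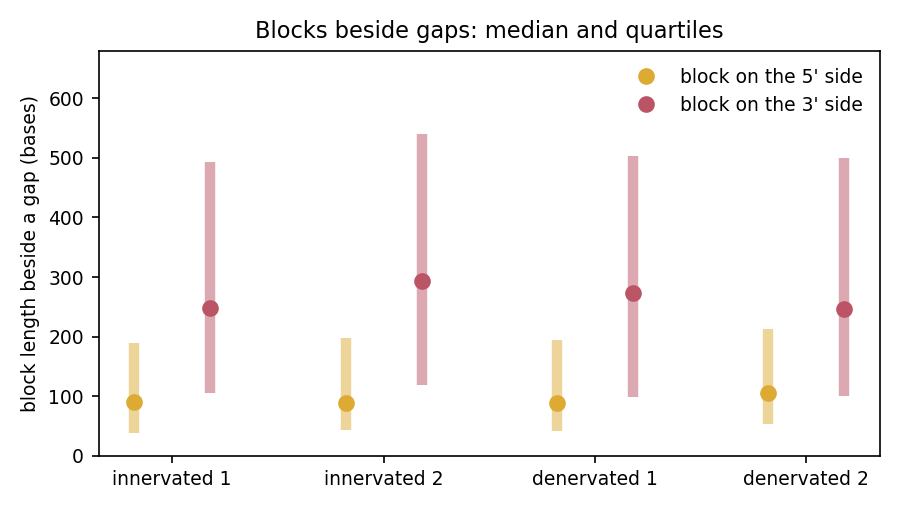
Block length in bases (y) beside the gaps of each list (x), on the 5′ side (yellow) and the 3′ side (red); points are medians and bars run from the lower to the upper quartile. In each list the 3′ median, 245.5 to 292.5 bases, lies above the 5′ median, 89 to 105 bases.

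The rule has a threshold, since a single base on the far side of a gap makes a spliced peak. Just inside it, 63 of the 370 regions had a list whose best crossing was under 10 bases on its smaller side, and in 8 it was 1 base. Just outside it were 227 shared regions with a spliced peak in 3 lists. The list without one was innervated 1 in 81, denervated 1 in 67, innervated 2 in 43 and denervated 2 in 36. Another 294 and 421 shared regions were spliced in 2 lists and in 1 list, and 3229 in no list. Only 74 of the 370 crossed by more than 100 bases in every list.

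The regions lay toward the 3′ end of their genes, but less so than unspliced shared regions. Place was taken as the middle covered base along the gene's RefSeq span, introns included, with 0% at the 5′ end. All 370 regions had a name matched in RefSeq, 352 as symbols and 18 as older symbols, and 366 regions lay in protein-coding genes. The median place of spliced peaks was 78.2% and 79.7% in innervated and 78.3% and 79.0% in denervated muscle. For shared regions spliced in no list it was 86.1%, 85.9%, 85.7% and 86.1%. The difference was -7.15 ± 0.703 percentage points (SD over 4 lists, lower in 4 of 4), and a two-sided exact permutation of its signs gave p = 0.125, the smallest that 4 lists allow. The lists share these regions, so they are not independent of the genes. Place is also tied to the rule, since a peak that lies wholly within 1 block, as inside a last exon, does not count as spliced. How much of the difference follows from this was not tested. By region, 182 of 370 (49.2%) lay in the last of 5 equal parts of the span and 46 (12.4%) in the first part, against 59.7% and 8.82% of the unspliced. Median gene spans were alike, 29564 and 29716 bases.

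**Figure D3:**
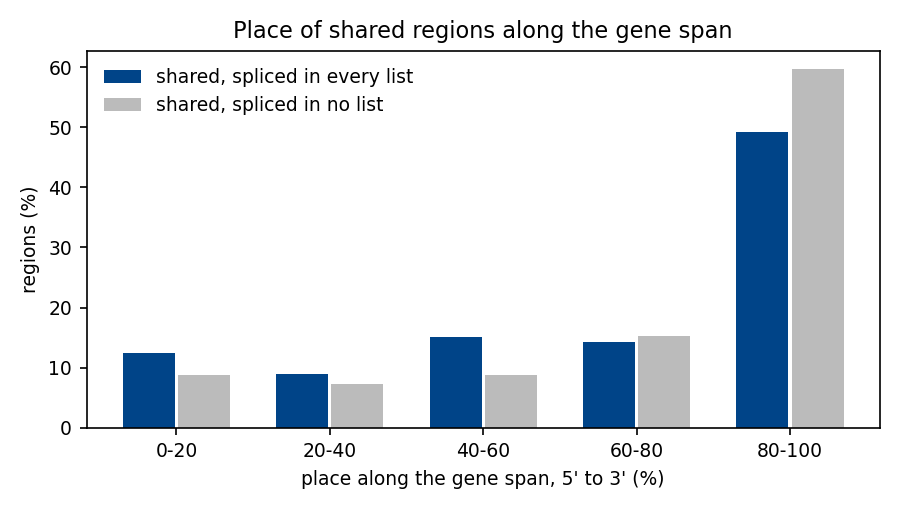
Percent of regions (y) in each of 5 equal parts of the RefSeq gene span from the 5′ to the 3′ end (x), for the 370 regions spliced in every list (blue) and the shared regions spliced in no list (grey). Both peak in the last part, at 49.2% and 59.7%.

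At the extremes, the peak of Ogdh stood at 0.223% of the span. It covered 101 bases in each list, 73 before a gap of 788 bases and 28 after it, and its 3′ edge is the transcript start shown above. Plxna2, a receptor for semaphorins, Szrd1 and Rrbp1, a ribosome-binding protein of the endoplasmic reticulum, followed, with medians below 0.5%, although innervated 2 placed Plxna2 at 12.2% and denervated 1 placed Rrbp1 at 34.3%. At the other end, Pde4d and Pde4b, phosphodiesterases that break down cyclic AMP, Fry and Pdzrn3, which acts on the muscle receptor kinase MuSK, had medians of 99.3% to 99.7%. The gap of Pde4d, of 539 bases, had 990 bases after it in every list.

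The strand was unequal. Of the 370 regions 262 lay on the minus strand (70.8%), against 57.5% of all shared regions, 52.4% of those spliced in no list and 49.8% of the genes in the RefSeq start table. Over whole lists, 13.6% and 15.0% of minus-strand peaks were spliced in innervated and 14.5% and 18.5% in denervated muscle. On the plus strand these shares were 8.90% and 9.19%, and 7.68% and 9.71%. The difference was 6.54 ± 1.73 percentage points (SD, higher in 4 of 4 lists, two-sided exact permutation of signs p = 0.125, the smallest possible). Here too the lists share many regions and are not independent of the genes. Both strands showed the short 5′ and long 3′ blocks: the 3′ medians were 211.5 to 221 bases on the plus and 261 to 304 bases on the minus strand, against 5′ medians of 96 to 122.5 and 76 to 101. What sets this inequality was not tested.

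**Figure D4:**
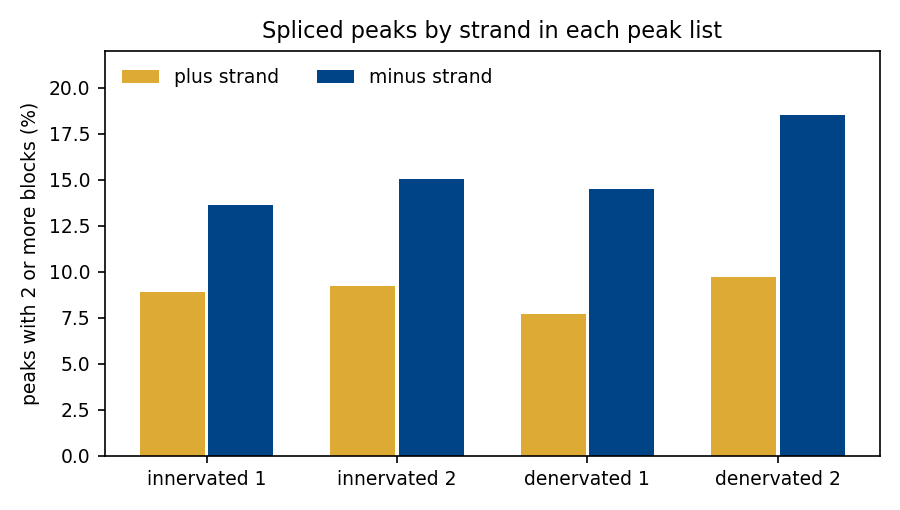
Percent of peaks with 2 or more blocks (y) on the plus (yellow) and minus (blue) strand in each of the 4 lists (x), over all peaks. The minus-strand share, 13.6% to 18.5%, exceeds the plus-strand share, 7.68% to 9.71%, in every list.

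Gaps recurred to the base across lists within the chosen regions. A gap was called the same when both its edges agreed to the base. If blocks were cut from annotated exons, which is not stated, edges would agree to the base by construction. The counts below thus show which gaps each list reached and do not measure how stable the junctions were. Of 585 gaps, 385 were in all 4 lists (65.8%), 50 in 3, 64 in 2 and 86 in 1. A gap held by all 4 lists makes its region a member, so the 385 are also all such gaps of the series, 12.4% of 3100. The rule asks for some gap in each list but not for the same gap, and 356 of 370 regions (96.2%) had at least 1 gap common to all lists. In 222 regions there was a single gap, which the rule then places in all 4 lists. In the other 148, with 363 gaps, 163 gaps (44.9%) were in all 4 lists and 134 regions had at least 1 such gap. Of the 222 regions with a single gap, 143 had 1 peak per list. Their gap edges are identical by this choice. The outer ends of their peaks ranged over a median of 50 bases across lists at either end. Ends often moved by about 50 bases, as with 487 and 537 bases in Foxo3. A range of 50 bases may thus be a single step of the calling, which was not tested.

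**Figure D5:**
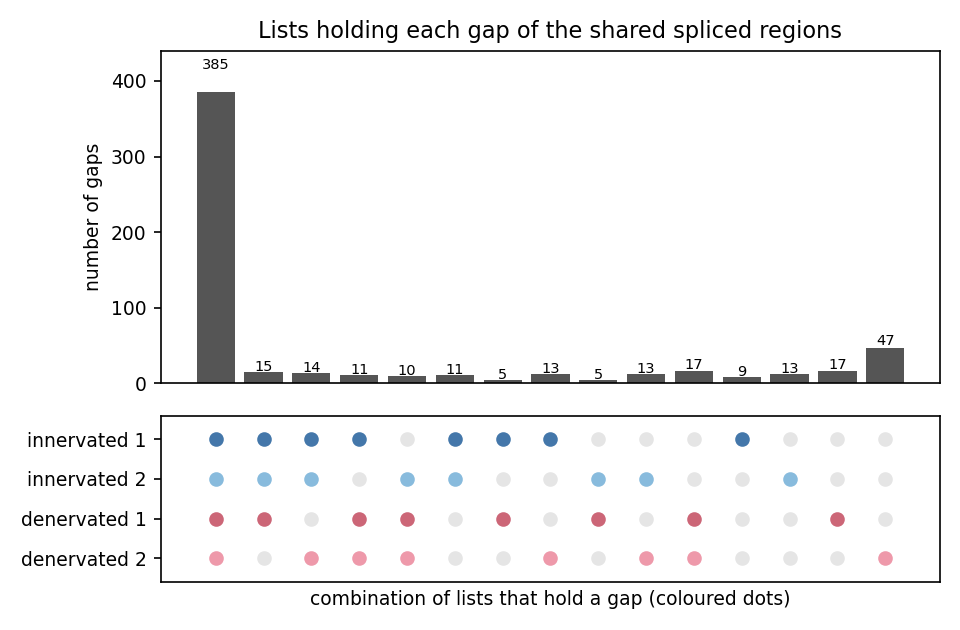
Number of gaps (upper y axis, value above each bar) for each combination of lists that hold them (coloured dots below mark the lists). The combination of all 4 lists holds 385 gaps, and denervated 2 alone, with 47, is the next.

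Where a list lacked a gap that another list had, its peak nearly always stopped short of it. There were 436 such absences among 2340 combinations of gap and list. In 426 (97.7%) no block of the list touched either edge, and the nearest block ended a median of 53 bases away, with quartiles at 25 and 98 bases. In 4 a peak covered bases inside the gap, in 4 another gap shared an edge, and in 2 a block touched an edge without a gap. These 10 fell in 3 genes, Akap2, Rbm14 and Slc38a10, named here after their values were seen. Akap2 and Rbm14 lie in regions that carry more than 1 gene name. In Akap2, a scaffold of protein kinase A, a gap from 57883203 to 57892868 on chromosome 4 ran past a small block that other peaks included. A list's own gap or block at an edge, or inside the gap, was thus met in 10 of 436 absences. A single base beyond an edge makes a gap, so a list without the gap can do little else than end before it. The high share may thus follow in large part from how blocks are built, and draws no line between splice forms.

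Lists of a group did not share more gaps than lists of different groups beyond the spread between pairs. The Jaccard index, gaps held by both lists as a share of gaps held by either, was 0.843 for the innervated pair and 0.766 for the denervated pair. For the pairs across groups it was 0.813, 0.804, 0.769 and 0.762, and denervated 2 was in the 2 lowest. These regions were chosen for splicing in every list, and over all 3100 gaps of the series the index was lower, at 0.368 and 0.315 within groups and 0.285 to 0.323 across groups. The within-group mean was higher by 0.0179, and this turned to -0.0174 without innervated replicate 1 and to -0.0256 without innervated replicate 2. Member regions held 463 and 466 distinct gaps in the innervated and 465 and 510 in the denervated lists. The means were 464.5 ± 2.12 and 487.5 ± 31.8 (SD, n = 2 each), and the difference of 23 did not exceed the spread between replicates (two-sided exact permutation p = 0.667, 0.333 being the smallest possible). Without denervated replicate 2 it was -6. Spliced peaks had 1.22 and 1.21 gaps each in innervated and 1.19 and 1.34 in denervated muscle (exact permutation p = 1), and without denervated replicate 2 the difference of 0.0547 became -0.0197. Peaks with 3 or more blocks numbered 69 and 73, and 61 and 96. Denervated 2 thus stood apart with more gaps and more blocks, and 14.8% of all its peaks were spliced, against 11.5% to 12.5% in the other lists. The covered length of spliced peaks differed by less than the spread between replicates, with medians of 497.5 and 543 bases in innervated and 499 and 549 bases in denervated muscle (exact permutation p = 0.667).

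Few gaps were specific to a group. In both denervated and neither innervated list there were 17 gaps in 16 regions (2.91%), and in the opposite case 11 gaps in 10 regions (1.88%). Over all 3100 gaps of the series these shares were 4.52% and 5%, and in the other regions shared by all lists 6.55% and 4.78%. The rule places every gap of all 4 lists in a member, which lowers the members' shares. Among the 200 member gaps not in all 4 lists they were 8.5% and 5.5%. The other shared regions have no gap in all 4 lists, so these shares stand beside their 6.55% and 4.78%, and the difference was not tested. Of the 25 regions concerned, since 1 had both kinds, 22 also had a gap common to all lists. With only the smaller-score 50% of peaks the counts fell to 6 and 5, with the larger-score 50% to 2 and 2, and with reciprocal overlap of 50% to 9 and 7. With both flanks of at least 20 bases, 13 and 6 were left. Leaving out a list loosens the definition, and 31 to 72 and 20 to 36 gaps then counted, with the most without denervated replicate 1 on both sides.

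On the denervated side the deepest crossing was in Zfyve1, a protein that binds phosphoinositides at sites of autophagosome formation. The gap of 19261 bases on chromosome 12, from 83575137 to 83594397, had flanks of 925 and 505 bases in denervated 1 and 382 and 314 in denervated 2. The first gap of the same region, of 1674 bases, was in all lists. Innervated 2 covered 842 of the 925 bases between these gaps and did not touch the longer gap. The region held 3 and 2 peaks in the innervated and 1 and 2 in the denervated lists. Nck1, an adaptor that links receptors to actin, shared a gap of 1586 bases in all lists, and both denervated lists went on across a gap of 10458 bases by 105 and 154 bases. In Tuba4a, an alpha-tubulin, the gap of 236 bases was held by both denervated lists with flanks of 137 and 223 bases before it and 149 bases after it. A gap of 233 bases beside it was in all 4 lists. Innervated 1 covered 87 of the 223 bases before the gap of 236 bases and 91 of the 149 after it, in separate peaks. Innervated 2 covered 140 of those 149 bases. Mtif3, a mitochondrial translation factor, Gprc5b, an orphan receptor, and Fam214b had denervated-only gaps of 3944, 6944 and 2608 bases in regions with another gap common to all lists, and Fam214b had another of 66 bases. In Arid1b another gap, of 1907 bases, was crossed by 40 bases in both denervated lists. Upf3b, which couples exon junction complexes to nonsense-mediated decay, had 5 gaps, among them 1 in all lists and 1 of 1890 bases in the denervated lists only.

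On the innervated side Slc38a10, of a family of amino acid transporters, had 2 such gaps on chromosome 11. Both innervated lists crossed gaps of 397 and 1856 bases around a block of 177 bases, and their widest spliced peaks covered 1888 and 1540 bases. In the denervated lists the widest covered 299 and 448 bases and crossed only a gap of 529 bases, which all 4 lists held. A block of both denervated lists touched an edge of the first gap without crossing. Snrnp70 and Spen, a transcriptional repressor that binds RNA, had innervated-only gaps of 3273 and 2910 bases beside a gap in all lists. Szrd1 and 2810004N23Rik completed the 6 with the deepest crossings.

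Samd4 was the region with both kinds of group-specific gap. Both innervated lists crossed a gap of 1230 bases on chromosome 14, from 46883169 to 46884398, with 104 bases before it and 544 and 594 after it. Both denervated lists instead crossed the gap of 116323 bases, from 46885017 to 47001339, with 523 bases before it and 26 after it in each. Both groups thus covered much of the stretch that lies between these gaps, but no list covered all of it, and their peaks left it at opposite ends. Where a list lacked 1 of these gaps, no block of it touched either edge, as in most absences above. The region was found among 370 by looking for such gaps, so it is a description of 4 libraries.

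In 14 regions no gap was common to all lists. The widest was Urgcp, with 5 gaps, followed by Synm (synemin), an intermediate filament protein of muscle. Synm had a gap of 6890 bases in 3 lists and gaps of 2198 and 12628 bases in innervated 2 and denervated 2. Its widest spliced peaks covered 1046 and 1843 bases in innervated and 997 and 2589 bases in denervated muscle, so the number 2 lists were high in both groups. Usp2, a deubiquitinase, had a gap of 8697 bases in 3 lists whose 3′ edge is among the transcript starts shown above, and denervated 1 held a gap of 5834 bases instead. Plvap, a protein of endothelial diaphragms, had a gap of 156 bases in 3 lists and a gap of 523 bases in denervated 1. Arhgap12 and Rundc1 were the others of the 6 widest. None of these 6 regions had a gap in both lists of one group and neither list of the other.

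The next regions had among the highest median numbers of gaps per list. Spty2d1, a histone chaperone, had 1, 4, 4 and 5 gaps in the order innervated 1 and 2 and denervated 1 and 2. Of its 5 gaps, 1, of 766 bases, was in all lists, and innervated 1 was the low list. Anp32b, a nuclear chaperone of histones, had 3, 2, 3 and 3 gaps, where innervated 2 stopped short of the first. Its block of 70 bases between 2 gaps was the same in all 4 lists. The region of 1810013L24Rik had 3 gaps, all of them in every list. Cd163, a scavenger receptor of macrophages, had 3, 3, 4 and 2 gaps, of which 2, of 92 and 94 bases, were in all lists. Cd163 is not in the chosen list of macrophage markers, of which 0 of 5, among them Adgre1 and Csf1r, carried a peak. The complement genes C1qa and C1qc, which macrophages express, were members as well, with gaps of 946 and 1779 bases in all lists, as was the lectin gene Cd209f with a gap of 372 bases. These 3 were named after their values were seen.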

How the data were processed

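The authors deposited 4 peak lists on mm10, 1 per IP library called against its input, 1 line per peak with its blocks, gene name and score. The deposited score runs from 0 to 0.023, and its meaning is not stated in the sources used here. It was used only to rank peaks within a list. The submitters' processing notes name STAR 2.4.2a and ChIPseeker. The peak caller, its limit and its annotation are not stated in the sources used here. The kit was strand-preserving, per the labels' protocols. Depth per library is unknown.

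Peaks were linked and counted in Python 3.11.15 with numpy 2.4.6, and the linking was tested on simulated data. A gap is the stretch between neighbouring blocks. Groups were tested by permuting 2 against 2 lists exactly and two-sided, and differences within lists by exact permutation of signs. Members, gene lists and tests were chosen with earlier results of these data known. Named genes were those with the most gaps, the longest and shortest gaps, the widest peaks, group-specific gaps with the deepest crossings, no common gap, the extremes of place, and the first 4 members of each of 9 lists. Others were chosen after their values were seen, and a few genes picked by this rule are not reported here. Of other cell types' markers, 3 of 5 for satellite cells, 5 of 6 for endothelium, 3 of 5 for fibroblasts, 2 of 5 for Schwann cells, 0 of 5 for macrophages and 0 of 3 for erythroid cells had a peak in any list, and 0 of them held a member region. Gene spans and start windows came from RefSeq, GRCm38.p6.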

Additional observations from a re-analysis of the deposited data

How the results depend on the processing

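Keeping the smaller-score 50% of every list, 132 regions were members, with 136 gaps in all lists, 6 denervated-only and 5 innervated-only gaps and a median place of 72.3%. For the larger-score 50% the same values were 65, 67, 2 and 2, and 81.0%. Fewer peaks enter both, and the direction of the score is not known. Reciprocal overlap of at least 50% gave 9 denervated-only and 7 innervated-only gaps, a place of 81.5% and a difference in covered length of -1.75 bases in place of 3.75. With both flanks of at least 20 bases, 6 innervated-only gaps were left. The cause of these shifts was not tested. Joining blocks less than 50 bases apart left 584 of 585 gaps and a difference of 23.5 distinct gaps in place of 23, with 370 regions and 385 common gaps as before. Leaving out 1 list at a time gave 31 to 72 denervated-only and 20 to 36 innervated-only gaps. The denervated minus innervated difference was then -6 to 45 in distinct gaps, -0.0197 to 0.115 in gaps per spliced peak and -5.25 to 52.5 bases in covered length. The Jaccard difference was -0.0256 to 0.0670 and the median place 76.8% to 79.5%. With the replicate number as a block (exact permutation of signs over 2 pairs, smallest possible p = 0.5), the differences stayed 23 (p = 0.5), 0.0547 (p = 1) and 3.75 bases (p = 0.5). Whether same-numbered lists pair is not shown: the number 1 minus number 2 differences of the groups correlated at 0.0661 in log2 covered length over 370 regions and -0.00232 in gaps called. Depth is unknown, so a missing gap is no evidence of another splice form.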

Other observations

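Gene families, grouped by the start of their names, contributed unevenly. Of 133 gene names starting with Zfp and holding a shared region, 10 held a spliced one (7.52%), where Zfp91 and Zfp91Cntf name the same region, and of 10 Klf factors 4 did (40%), namely Klf3, Klf4, Klf10 and Klf11. Trim genes gave 3 of 8, Tmem genes 5 of 31 and Slc transporters 3 of 36, while names starting with Col gave 0 of 9. All genes with a shared region gave 12.7%. The families are small and were not tested.

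Outside protein-coding genes, 3 regions lay in long noncoding RNA genes, A730017L22Rik, Uckl1os and Nctc1, and 1 in Abhd1, which the RefSeq table lists as a transcribed pseudogene. These were named after their values were seen.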
